A study of Mus musculus with 66 samples.

Results

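The expression of 6 genes used as marks of alternative macrophage activation, Arg1, Chil3, Il4ra, Mrc1, Adam8 and Msr1, was followed through muscle regeneration after toxin injury. The genes were taken as all probe sets annotated to each of them alone on the later version of an Affymetrix murine array, called Av2 in the labels. This gave 6 of 8251 genes and 8 of 12488 probe sets, with 2 probe sets each for Il4ra and Msr1 and 1 for each of the others. The brightest probe set stands for a gene. The genes were chosen with their courses on these arrays in view, as Arg1 and Chil3 being early and Mrc1 and Adam8 later, so their levels are given as a description with no test. Mouse gastrocnemius, a calf muscle, was left untreated or was injected with cardiotoxin, a venom peptide that kills muscle fibres and leaves the stem cells that rebuild them. The Av2 arrays held 27 groups with 2 arrays each, which were untreated controls and samples taken 12 h and 1, 2, 3, 3.5, 4, 4.5, 5, 5.5, 6, 6.5, 7, 7.5, 8, 8.5, 9, 9.5, 10, 11, 12, 13, 14, 16, 20, 30 and 40 d after the injection. A further 12 arrays of the earlier version, called A, held 2 arrays for each of 6 groups, namely controls and 12 h, 1, 2, 4 and 10 d. The labels give an age of 8 weeks for the controls and, for injected samples of the A arrays, a dose of 100 ul of 10 uM cardiotoxin; the labels used here give no strain, genotype or sex. Nothing in the labels ties the 2 arrays of a time to 2 different mice, and the p-values below therefore cover the spread between arrays, which may be technical. Each sample code holds a number and letters. In 9 of the 27 Av2 groups (1, 4, 4.5, 5, 5.5, 11, 12, 13 and 14 d) both codes share the number and differ in the letters, LL and RL.

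Macrophages that meet interleukin 4 or interleukin 13 signal through the receptor chain Il4ra to Stat6 and raise a set of genes that is used to mark alternative activation. Among these are Arg1, the arginase that turns arginine into ornithine and urea, Chil3 (also called Ym1), a secreted chitinase-like lectin, and Mrc1, the mannose receptor that takes up glycoproteins. In injured muscle, neutrophils and inflammatory monocytes arrive before macrophages with a more reparative profile, and neutrophils also express several of these genes, among them Chil3. Msr1 is a scavenger receptor for modified lipoproteins, and Adam8 is a membrane metalloprotease of leukocytes that cuts adhesion molecules.

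Values are intensities on a linear scale. The floor, below which a value was not ordered, was 64.7 on Av2, and 76.4% to 83.4% of the probe sets of an Av2 array lay above it. The muscle fibre markers, summed over 15 genes, were at 389394 and 469645 on the controls and between 97153 and 227892 at 3 to 4.5 d. The b-actin quality control, a ratio of the 3' to the 5' probe set, was 0.0184 to 0.0782 on 7 arrays, namely replicate 2 of 12 h and both arrays of 1, 2 and 4 d. It was 0.725 and 1.06 on the controls, and the next lowest ratio was 0.233 on replicate 1 of 5 d. On the 7 arrays the 3' value was 329.8 to 2334 and the 5' value 9404 to 33571. On the controls the 3' values were 27733 and 36489 and the 5' values 38272 and 34520. Replicate 1 of 12 h had a ratio of 0.587 and both arrays of 9 d had ratios of 1.05 and 1.00. The same ratio for Gapdh was 0.0439 to 0.162 on 9 later arrays (9.5 d replicate 2, 11 d replicate 1, 12 d replicate 2, 14 d replicate 2, 16 d replicate 1, 20 d replicate 2, both of 30 d and 40 d replicate 1), against 0.373 and 0.451 on the controls. Replicate 2 of 40 d, at 0.314, was also below both controls. Replicate 2 of 12 h stood apart in B cell markers: their sum over 10 genes was 11465, against 2275 on replicate 1 and 2214 and 2503 on the controls, and Cd79a, a part of the B cell receptor, was at 3359 and 361.7. In whole muscle, more cells of a type and more RNA per cell cannot be told apart.

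The promoters of Chil3, Mrc1 and Adam8 are shown because these genes had a short course, a long course and a course that ended at one step. Each runs from 250 bases before to 50 bases after the annotated start in RefSeq (GRCm38.p6): Chil3 at chr3:106167515-106167814 on the minus strand, Mrc1 at chr2:14229164-14229463 on the plus strand and Adam8 at chr7:139992513-139992812 on the minus strand. Of the 6 genes, 4 had an entry in the promoter table, and Arg1 and Msr1 had none. Capitals mark matches, on either strand, to 5 motifs: a STAT6-type site (TTC and GAA with 4 bases between them), a PU.1 core (GAGGAA), a C/EBP-type site (TTGCNNAA), an AP-1 site (TGANTCA) and a hypoxia response core (ACGTG).
Chil3: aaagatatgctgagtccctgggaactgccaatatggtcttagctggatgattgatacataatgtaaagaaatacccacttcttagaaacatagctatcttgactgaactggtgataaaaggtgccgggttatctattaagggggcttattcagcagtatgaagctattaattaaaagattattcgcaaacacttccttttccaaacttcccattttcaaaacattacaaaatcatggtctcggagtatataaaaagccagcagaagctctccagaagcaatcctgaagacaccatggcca
Mrc1: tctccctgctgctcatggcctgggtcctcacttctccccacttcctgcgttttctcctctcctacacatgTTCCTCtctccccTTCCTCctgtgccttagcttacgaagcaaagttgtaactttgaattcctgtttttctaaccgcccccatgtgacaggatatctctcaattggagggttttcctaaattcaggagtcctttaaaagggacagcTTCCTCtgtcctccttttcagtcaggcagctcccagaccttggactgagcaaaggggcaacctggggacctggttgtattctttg
Adam8: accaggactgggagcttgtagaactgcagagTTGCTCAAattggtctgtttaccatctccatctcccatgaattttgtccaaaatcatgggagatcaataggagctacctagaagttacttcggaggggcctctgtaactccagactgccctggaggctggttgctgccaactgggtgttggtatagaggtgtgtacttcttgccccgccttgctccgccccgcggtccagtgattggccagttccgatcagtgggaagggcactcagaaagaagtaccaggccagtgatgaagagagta
The Mrc1 window held the PU.1 core 3 times, at -180, -167 and -35 from the start, a motif found in 28.3% of 32851 mouse promoter windows of the same length. The Adam8 window held the C/EBP-type site once, at -219, a motif found in 10.8% of the windows. The Chil3 window and that of Il4ra (chr7:125552021-125552320, plus strand) held none of the 5. The STAT6-type, AP-1 and hypoxia motifs, found in 6.95%, 7.81% and 19.6% of all windows, were in none of the 4 windows. These are matches of letters and not measured sites.

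Il4ra, the receptor chain shared by both cytokines, was at 76.1 and 71.4 on the controls, close to the floor. It stood at 3491 and 7584 at 12 h, 8522 and 7482 at 1 d, and 7911 and 7475 at 2 d. Every array of these 3 times lay above every other array of the course. By 3 d Il4ra was at 2262 and 2273, a level 3.39-fold below that of 2 d, with no overlap. It was higher again at 4 d (3346 and 2878) and at 9 d (1980 and 1537) than on the arrays of the times on either side. At 16 to 40 d it lay between 180.9 and 471.7, still above both controls on every array. Its mean over 12 h to 2 d was 92.4-fold that of the controls on the log2 scale, and over 20 to 40 d 4.44-fold. The highest mean was at 1 d (8002 ± 735, SD, n = 2), with 2 d next at 7693 ± 309, and these times overlapped; leaving out single arrays moved the highest mean between 1 d and 2 d. The other Il4ra probe set did not show this course: it lay between 61.7 and 353.4 on all 54 arrays, and its correlation with the brighter probe set over the 27 group means was -0.16. The values of Il4ra therefore rest on 1 probe set.

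Arg1 was below the floor on both controls, at 13.8 and 11.05. At 12 h the arrays stood far apart, at 1857 and 15546. They were at 37010 and 20285 at 1 d and at 18181 and 10912 at 2 d. All 6 arrays from 12 h to 2 d were above every array of 3 d, when Arg1 was at 1586 and 1623, 8.78-fold below 2 d. The highest mean, 28648 ± 11827 (SD, n = 2) at 1 d, was at least 424-fold the control floor, and it stayed at 1 d when any single array was left out. The mean of 2 d was 14547 ± 5140 and that of 12 h 8701 ± 9679. The arrays of 1 d did not overlap those of 2 d or of 12 h, whereas those of 12 h and 2 d overlapped.

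After 3 d the course of Arg1 was uneven. It was at 503.4 and 844.0 at 3.5 d, at 3489 and 3062 at 4 d, and at 1516 and 653.1 at 4.5 d. Both arrays of 4 d thus lay above all 4 arrays of the neighbouring times, by 4.06-fold in the mean log2 level, and 0.108% of the 11997 probe sets tested stood as far or further above their neighbours at 4 d. From 5 d the arrays went from 805.5 and 1583 down to 41.1 and 38.6 at 8 d, which is below the floor. At 9 d Arg1 was at 5550 and 2168, between 96.5 and 99.9 at 8.5 d and 89.4 and 239.9 at 9.5 d. This 28.9-fold difference from the neighbouring times was matched or exceeded by 0.0583% of the probe sets tested. The 4 d and 9 d steps were picked after the courses were seen, so these shares are a description and no test. Without 9 d, the highest of the 8 remaining arrays of 8 to 10 d was 239.9. Later values were uneven between arrays: 13.3 and 928.4 at 11 d, 83.2 and 49.2 at 12 d, 394.0 and 435.6 at 13 d, and 89.4 and 51.0 at 14 d. From 16 to 40 d 2 of 8 arrays exceeded the floor, at 102.1 and 100.9.

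The 12 h arrays of Arg1 differed by 8.37-fold, while the median probe set above the floor on both arrays differed by 1.43-fold and 0.39% of 9228 probe sets differed by as much. Msr1 was 5.64-fold apart there, and the other 4 genes were 2.08-fold to 2.24-fold apart, all with replicate 2 higher. Replicate 2 was also the array with the high B cell markers, and the summed T and NK cell markers of the 12 h arrays were at 1942 and 3367; their part in the gap was not tested. Over the 17 groups in which Arg1 was above the floor on both arrays, the median ratio of its higher to its lower array was 1.68; for the other 5 genes these medians lay between 1.18 and 1.28.

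Chil3 was at 32.1 and 92.5 on the controls, 6643 and 13801 at 12 h, 20394 and 15245 at 1 d, and 8093 and 7016 at 2 d. It was highest at 1 d (17819 ± 3641, SD, n = 2), also when any single array was left out, and the arrays of 1 d lay above all others. Lower values followed at each time up to 4.5 d. Chil3 was at 4724 and 3539 at 3 d, 1902 and 1786 at 3.5 d, 1347 and 1401 at 4 d, and 493.7 and 379.2 at 4.5 d. From 5 to 14 d all arrays lay between 183.1 and 500.8, with every one above both controls. At 4 d the arrays fell within the range of 3.5 and 4.5 d. At 9 d Chil3 (371.5 and 476.2) was 1.97-fold above its neighbours without overlap, a difference reached by 3.001% of the probe sets. At 16 d it was at 151.4 and 26.7 and at 20 d at 255.0 and 45.1, so that 1 array of each of these times lay below the floor, and at 40 d it was at 215.0 and 184.3.

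**Figure D1:**
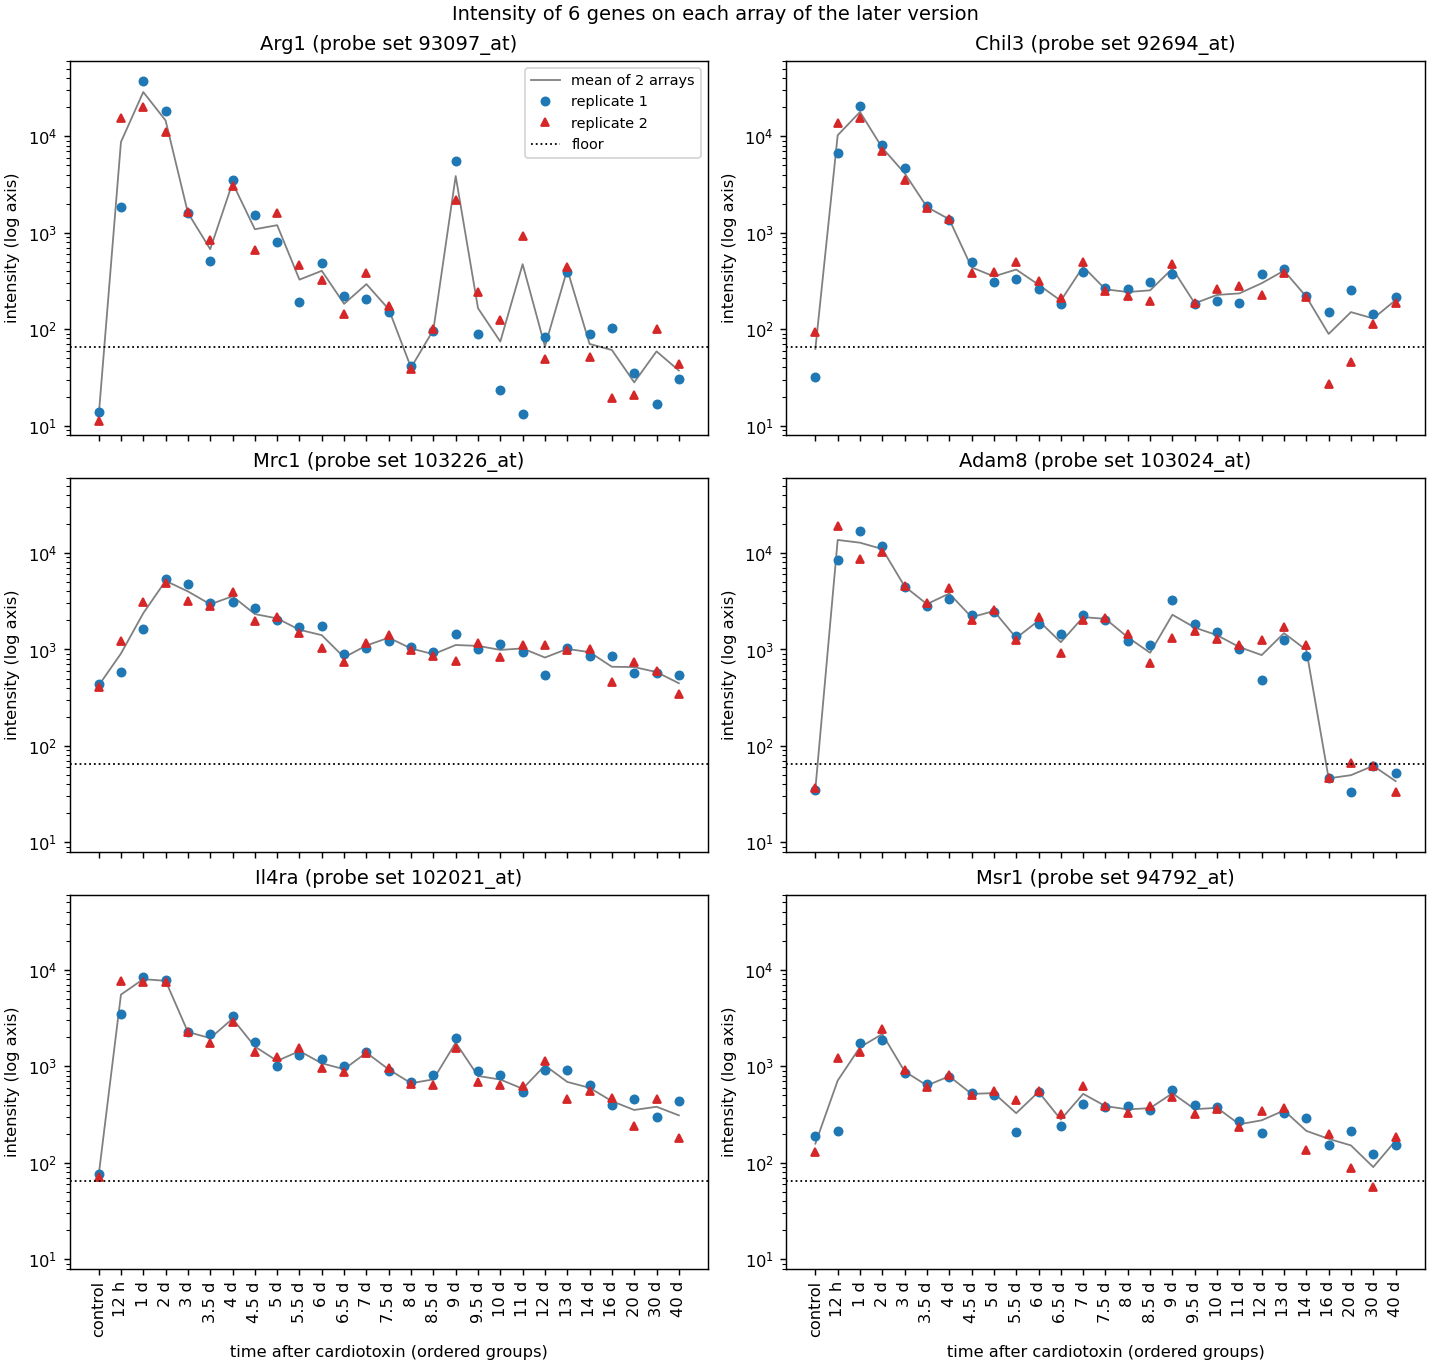
Intensity (log axis) of the brightest probe set of each gene on both arrays of the 27 groups, with groups in order of time and not to scale, the group mean as a line and the floor of 64.7 dotted. Arg1 and Chil3 are highest at 1 d and Mrc1 and Msr1 at 2 d, Arg1 stands out again at 4 d and 9 d, and Adam8 is below the floor on both arrays at 16 d.

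Mrc1, the mannose receptor, was already well above the floor on the controls, at 434.2 and 411.0. At 12 h it stood at 577.6 and 1238 and at 1 d at 1613 and 3139. At 2 d it was at 5341 and 4934, which was 2.28-fold above 1 d with no overlap and higher than on any other array. The mean of 2 d, 5138 ± 288 (SD, n = 2), was the highest with any single array left out. Mrc1 was at 4794 and 3204 at 3 d, 3055 and 2828 at 3.5 d, 3130 and 3985 at 4 d, 2693 and 1963 at 4.5 d, and 2004 and 2192 at 5 d. Those of 3 d and 4 d overlapped, while the arrays of 3.5 d lay below both. Mrc1 was 1.31-fold lower at 3 d than at 2 d, where Arg1 was 8.78-fold lower. From 6.5 to 14 d it lay between 549.6 and 1461, and at 9 d (1461 and 762.7) it overlapped its neighbours. Its mean over 11 to 16 d was still 2.04-fold that of the controls, with all 10 arrays above both. Over 20 to 40 d it was 1.30-fold, with 5 of 6 arrays above both controls, and at 40 d (546.2 and 347.7) the arrays lay on either side of them.

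Msr1, the scavenger receptor, had a course between these. Its brighter probe set was at 187.8 and 128.0 on the controls, 214.2 and 1208 at 12 h, 1735 and 1419 at 1 d, 1883 and 2434 at 2 d and 854.0 and 914.4 at 3 d. Both arrays of 2 d exceeded all others, with a mean of 2158 ± 389 (SD, n = 2), and replicate 1 of 12 h lay close to the controls. From 5 to 10 d Msr1 lay between 209.4 and 630.0, above both controls on all 22 arrays. Over 20 to 40 d it was above both on 1 of 6. The second probe set had lower values, 126.0 and 205.5 on the controls and 839.4 and 680.6 at its highest, also at 2 d, and the correlation of both probe sets over the 27 group means was 0.87.

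Adam8 was described at the outset as one of the later genes, but its arrays did not show a late maximum. It was below the floor on the controls, at 34.6 and 36.8, and stood at 8425 and 18869 at 12 h, 16812 and 8764 at 1 d and 11751 and 10219 at 2 d. These 3 times overlapped, and all 6 arrays were above every other array of the course. The highest mean was at 12 h (13647 ± 7385, SD, n = 2), and leaving out replicate 2 of 12 h or replicate 2 of 1 d moved it to 1 d. Its later levels stayed far above the controls. It was at 4466 and 4541 at 3 d, between 2042 and 4305 from 3.5 to 4.5 d, and between 918.2 and 2545 from 5 to 7.5 d. At 9 d (3263 and 1317) the arrays overlapped those of 8.5 and 9.5 d.

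The later end of Adam8 lay between 14 and 16 d. It stood at 1253 and 1701 at 13 d and at 850.7 and 1124 at 14 d, and at 46.2 and 46.1 at 16 d, below the floor. It was at least 15.1-fold lower at 16 d, and 0.00834% of the 11997 probe sets, Adam8 alone, were lower by as much between these times. This step too was picked after the course was seen, so the share is a description and no test. From 16 to 40 d 1 of the 8 arrays lay above the floor, at 66.04. Between 14 and 16 d the log2 difference was -0.46 for Il4ra and -1.13 for Chil3, without overlap of their arrays, while the arrays of Mrc1, Msr1 and Arg1 overlapped. The summed macrophage markers went from 75573 and 93227 at 14 d to 38637 and 46154 at 16 d. Their part in the lower level of Adam8 was not tested. On the arrays of these times without a low Gapdh ratio, Adam8 was at 850.7 (14 d) and 46.1 (16 d).

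Set as percentages of its own highest group mean, which avoids comparing different probes, the genes were ordered by how much of it they kept. At 3 d Arg1 was at 5.60%, Chil3 at 23.2%, Il4ra at 28.3%, Adam8 at 33.0%, Msr1 at 41.0% and Mrc1 at 77.8%. At 5 d Arg1 was at 4.17% and Chil3 at 1.97%, Il4ra at 14.2% and Adam8 at 18.3%, and Msr1 at 24.4% and Mrc1 at 40.8%. The untreated controls stood at 8.23% for Mrc1 and 7.31% for Msr1. They were at 0.92% for Il4ra, 0.35% for Chil3, 0.26% for Adam8 and 0.04% for Arg1. A share of 10% thus lay close to the untreated level for Mrc1 and Msr1 and far above it for the others. The first time below 10% of the highest mean was 3 d for Arg1, 4 d for Chil3, 5.5 d for Adam8, 8 d for Il4ra, 14 d for Msr1 and 40 d for Mrc1. These were not final: the last time at or above that share was 9 d for Arg1 (13.5%, after 11.4% at 4 d), 12 d for Il4ra and 13 d for Adam8. Ordered by group mean, most neighbouring groups could not be separated: of the 26 neighbouring pairs in a gene's order, 21 overlapped for Arg1 and for Chil3, 19 for Il4ra, 22 for Mrc1 and 20 each for Adam8 and Msr1. The same count was not made over all probe sets.

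Cell type markers moved along with these courses. The 15 neutrophil markers on the array, summed, were highest at 1 d, between 68972 and 121525, against 3817 and 4125 on the controls; they stood at 82.3% of that mean at 12 h, 54.6% at 2 d and 8.58% at 3 d. They were at 38.6% at 9 d, at 6.59% and 6.12% at 8.5 and 9.5 d, and at 9.97% at 4 d, with 7.36% at 3.5 d and 6.57% at 4.5 d. S100a8, a neutrophil calprotectin subunit, was at 16089 and 2889 at 9 d, at 129.1 and 128.0 at 8.5 d and at 141.0 and 175.3 at 9.5 d. The 18 macrophage markers were highest at 4 d, between 189008 and 198634, against 23388 and 28700 on the controls. They stood at 47.0% at 12 h, 62.4% at 1 d, 91.3% at 2 d, 79.6% at 3.5 d and 68.4% at 4.5 d. At 9 d they were at 75.7%, with 48.1% at 8.5 d and 52.9% at 9.5 d. The summed fibroblast markers and the summed T and NK cell markers were highest at 9 d. The summed muscle fibre markers were at 91.9% of the control mean at 9 d, with 66.9% at 8.5 d and 51.8% at 9.5 d. The dendritic cell, endothelium, hepatocyte and B cell sums at 9 d were also above both neighbouring times, and the eosinophil, basophil and mast cell sum was not. The 9 d arrays thus stood apart in markers of many cell types, and the part of this in the 9 d values was not tested. The macrophage markers were still at 43.5% at 14 d and were at 21.9% at 16 d. Adgre1, the F4/80 antigen of macrophages, was at 331.5 and 159.2 on the controls, 355.7 and 170.4 at 12 h and 3106 and 3399 at 3 d. The macrophage sum was above the controls by 12 h, at 62905 and 119167, but its members differed. Cd14 was at 21283 and 39779 against 1344 and 1166, and Cd68 at 1501 and 4181 against 877.4 and 538.0. C1qa was at 1381 and 2081 against 2872 and 1762, and Csf1r at 1103 and 2666 against 1513 and 1191. The part of neutrophils and of macrophages in the 6 courses was not tested. Epx, a defining gene of eosinophils, which are a source of interleukin 4, was below the floor on all 54 arrays, and the 13 eosinophil, basophil and mast cell markers together lay between 1620 and 2860 at 12 h to 2 d and at 1854 and 2876 on the controls.

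**Figure D2:**
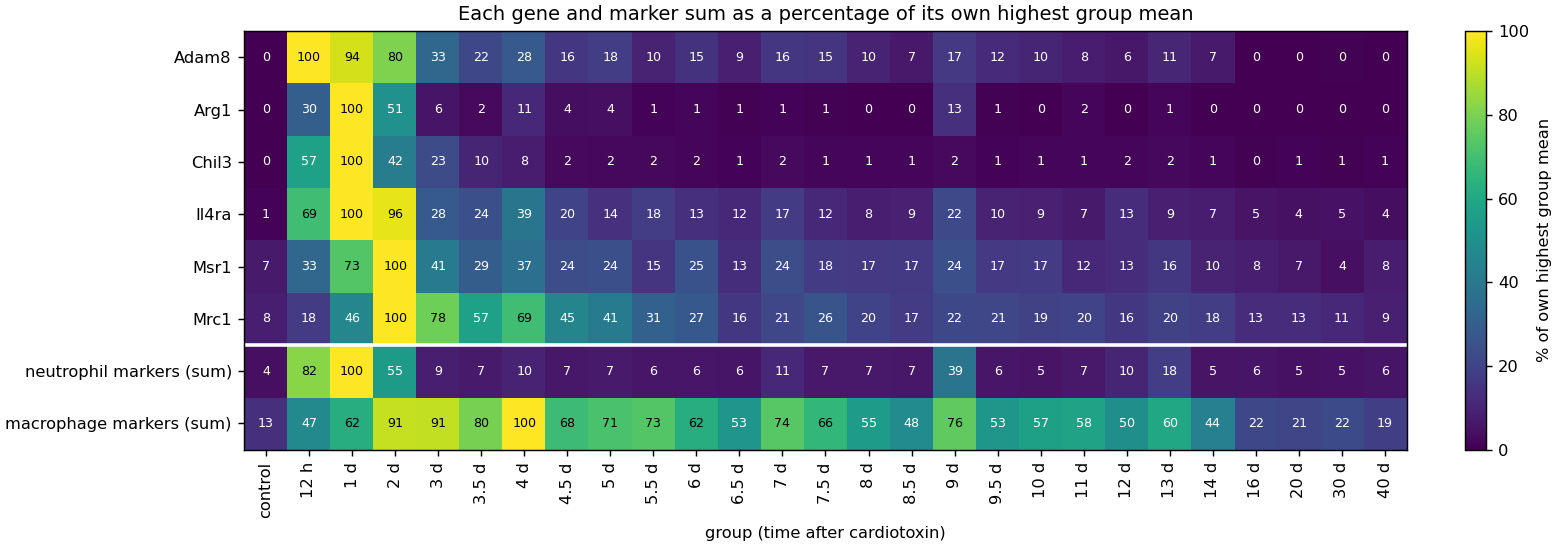
Group means of each gene, and the summed neutrophil and macrophage markers, as a percentage of their own highest group mean over the 27 groups in order of time. Mrc1 keeps 77.8% at 3 d where Arg1 keeps 5.60%. The 9 d column shows Arg1 at 13.5%, the neutrophil sum at 38.6% and the macrophage sum at 75.7%.

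The low b-actin ratios were on 5 of the 6 arrays of 12 h to 2 d and on both arrays of 4 d, at which Arg1 was high, and their part in these levels was not tested. On replicate 1 of 12 h, where the ratio was 0.587, Arg1 was at 1857, Chil3 at 6643, Il4ra at 3491 and Adam8 at 8425, all above every array from 5 to 8.5 d. Mrc1 was at 577.6 there, below every array of those times. Msr1 was at 214.2, below all of them but replicate 1 of 5.5 d (209.4). The Arg1 value of 1857 was below both arrays of 4 d (3489 and 3062) and of 9 d (5550 and 2168). Arg1 at 9 d was high on arrays with ratios of 1.05 and 1.00.

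For the later against the earlier level, the 22 arrays of 5 to 10 d were set beside the 6 arrays of 12 h to 2 d. The median of Arg1 was 198.4 against 16864 and that of Chil3 265.9 against 10947. The differences of the mean log2 levels were -5.64 and -5.26, and that of Arg1 is a bound, since its 3 later arrays below the floor (both of 8 d and 1 of 10 d) entered at the floor. The log2 difference was -2.77 for Il4ra and -2.88 for Adam8, -1.58 for Msr1 and -0.87 for Mrc1. Of the 22 later arrays, all lay below every earlier array for Chil3, Il4ra and Adam8 and 20 did so for Arg1, the exceptions being those of 9 d. For Msr1 1 did and for Mrc1 0 did, with replicate 1 of 12 h at 577.6 for Mrc1, below all 22. Over all 11997 probe sets the median of this difference was 0.04, and 15.1% were lower in this comparison by the limma test described below. How many of all probe sets separated as fully was not counted, and the 6 genes were chosen with these arrays in view.

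The A arrays measured 6 of the times again with 7 of the 8 probe sets. They may not be an independent set of samples. Over 1822 probe sets, the difference between the 2 arrays of a group on A, paired by the letters in the sample codes, correlated with that on Av2 at 0.42 for the controls, 0.84 at 12 h, 0.68 at 1 d, 0.46 at 2 d, 0.22 at 4 d and 0.19 at 10 d, and, except at 10 d, none of the other 26 Av2 groups gave as large a value. The largest value with another group was 0.60 at 1 d and 0.59 at 12 h. The codes are the same on both versions for the controls and 12 h, and at the other times the numbers in them differ. For this reason the A values are given as a second reading of the same times, with no test.

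On A the floor was 646.8, and the controls of Arg1, Chil3, Il4ra, Mrc1 and Adam8 were below it. Arg1 was at 2307 and 17600 at 12 h, 31279 and 21016 at 1 d, 15652 and 10815 at 2 d, and 3877 and 3626 at 4 d, and below the floor at 10 d. The wide gap at 12 h was thus present on both versions. Chil3 was highest at 1 d (17540 and 11823) and at 1269 and 1411 at 4 d. Mrc1 was at 928 and 1800 at 12 h, 2629 and 3455 at 1 d, 8690 and 7945 at 2 d, 5630 and 6212 at 4 d and 1554 and 1547 at 10 d. Adam8 was at 5645 and 14861 at 12 h, 12096 and 5669 at 1 d and 8147 and 7351 at 2 d, and still at 838.7 and 888.8 at 10 d. Il4ra was highest at 1 d (7922 and 7324). The Msr1 probe set that stands for the gene was below the floor on the controls and highest at 2 d (2684 and 3312). The other Msr1 probe set did not repeat this course clearly. It was at 1105 and 989.9 on the controls, and its 2 d arrays (1655 and 1764) overlapped those of 12 h and 1 d. The log2 difference of 2 d from 1 d was -0.98 for Arg1 and 1.46 for Mrc1 on A, and -0.96 and 1.19 on Av2. That of 4 d from 1 and 2 d was -2.28 for Arg1, -2.80 for Chil3, -1.64 for Adam8 and 0.24 for Mrc1 on A, against -2.59, -3.07, -1.61 and 0.06 on Av2.

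**Figure D3:**
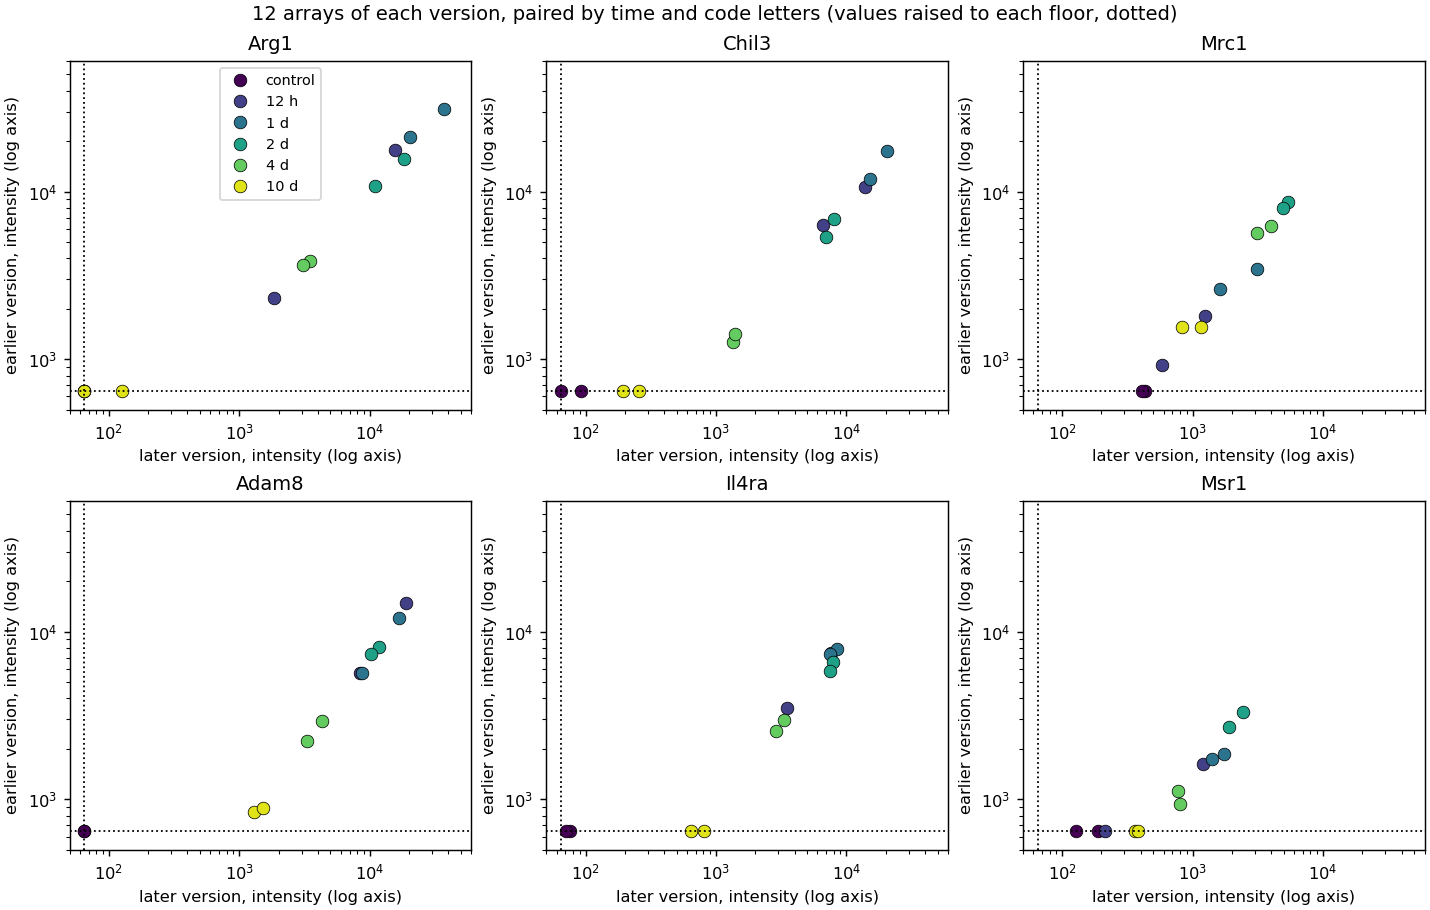
Intensity on the earlier version against the later version (log axes) for 12 arrays of each, paired by time and code letters, with values below a floor drawn at it and both floors dotted. The 12 h arrays of Arg1 lie far apart on both axes, and Mrc1 is highest at 2 d on both.

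The genes whose courses were most like those of each of the 6, by Pearson correlation of the 27 group mean log2 levels and with no test, were found among all probe sets tested. For Arg1 they were Csf3r (0.97, not by its brightest probe set), the receptor for granulocyte colony-stimulating factor, Cxcl5 (0.95), a neutrophil chemokine, Il1b (0.95), Pla2g7 (0.94) and Rac2 (0.93). The mean of this Csf3r probe set was 52.6 on the controls and 7636 at 1 d. The brightest Csf3r probe set had another course, with means of 1886 on the controls, 3583 at 1 d and 5373 at 9 d. For Chil3 they were Tpd52 (0.96), Mt1 (0.95), a metallothionein, Cxcl5 (0.95), Fosl1 (0.95) and Il17ra (0.95). For Il4ra they were Cmip (0.98), Il17ra (0.96), Slfn2 (0.96), Ccl9 (0.96) and Litaf (0.96). The genes nearest to Mrc1 were Snx2 (0.98) and Snx6 (0.97), sorting nexins of endosomes, Ctsc (0.97), a lysosomal protease, Cltc (0.96), the clathrin heavy chain, and Coro1c (0.96). Adam8 was nearest to Trpv2 (0.97), Csf2ra (0.97), Ptpn6 (0.97), Lilr4b (0.97) and Ncf4 (0.96), and Msr1 to Arhgdib (0.95), Dab2 (0.95), Lrrc59 (0.94), Atp6v1b2 (0.94) and Dusp6 (0.94). Among the 6 genes themselves the correlation ran from 0.70 for Chil3 and Mrc1 to 0.89 for Chil3 and Il4ra. All these values share the same 54 arrays.

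The other genes of the pathway were read from 7 lists without the 6 genes and tested with limma across all probe sets, with Benjamini-Hochberg adjustment. Where both controls of a gene lay below the floor, as for Inpp5d, Ccl2, Il1b, Tnf, Arg2, Clec4d and Chil1, its change against them is a lower bound. Of 135 genes tested, 91 changed over the time course, where 48.7% of all probe sets did. At 12 h to 2 d 60 were higher than the controls and 12 lower, where 17.7% of all probe sets were higher and 18.5% lower. At 5 to 10 d against 12 h to 2 d 26 were higher and 46 lower, where 20.3% were higher and 15.1% lower. Without the 5 arrays of 12 h to 2 d with a low b-actin 3' ratio, which leaves replicate 1 of 12 h alone in that window and takes out 1 and 2 d altogether, 37 were higher and 4 lower at 12 h to 2 d, and 28 were lower later. The lone array was assumed to vary like the other groups, and in this setting the time and the ratio change together, so their parts cannot be told apart. The share of all probe sets called was not computed for this setting or for others that leave out arrays or groups. Counts from such settings therefore cannot be set against the whole array. The median log2 change at 12 h to 2 d was 0.48, beside 0.00 over all probe sets. At 11 to 16 d 43 were still higher and 7 lower, beside 13.9% and 10.2% of the probe sets tested, and these counts were 11 and 4 at 16 d alone, the time that remains of this window without the groups whose codes share a number. The macrophage sum at 16 d was 21.9% of its highest mean, and at 14 d 43.5%. At 20 to 40 d 15 were higher and 5 lower, where 5.01% were higher and 2.12% lower. Leaving out single arrays gave 8 to 15 higher and 2 to 5 lower at 20 to 40 d, with changes over 1.5-fold without either control array for both counts and without replicate 2 of 30 d for the lower. Without the 9 arrays with a low Gapdh ratio, which takes out 30 d, 6 were higher and 6 lower at 20 to 40 d, and 43 higher and 9 lower at 11 to 16 d.

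Of 25 other genes of alternative activation, 8 were higher and 2 lower at 12 h to 2 d, beside 17.7% and 18.5% of all probe sets. For the later comparison below, the shares of all probe sets were 20.3% higher and 15.1% lower. The later counts of this list were close to those shares. Il1rn, the interleukin 1 receptor antagonist, was higher by 6.14 (log2, SE 0.52, adjusted p = 6.7e-11), with 80.8 ± 47.9 (SD, n = 2) on the controls and 8255 ± 8687 at 2 d. Tgfb1 (4.40, adjusted p = 2.5e-09) and Il1r2, the decoy receptor (4.38, adjusted p = 1.4e-11), which is also on the neutrophil list, were higher as well. Later, at 5 to 10 d against 12 h to 2 d, 5 of the 25 were higher and 5 lower, and 3 were lower without replicate 2 of 1 d, without replicate 2 of 2 d or without the 9 arrays with a low Gapdh ratio. Il1r2 fell by 4.04 (log2, SE 0.19, adjusted p = 6.4e-17) and Il1rn by 2.99. Mmp12, the macrophage elastase, rose by 3.35 (SE 0.18, adjusted p = 2e-15) and was highest at 13 d (8087 ± 516, SD, n = 2). Stab1, a scavenger receptor of tissue macrophages, was higher than the controls by 3.29 at 3 to 4.5 d (adjusted p = 7.9e-14), highest at 3 d. At 12 h to 2 d the list's count without the 5 arrays was 5 higher and 1 lower, without 12 h 4 were lower, and without replicate 2 of the controls 1 was lower. Pparg (adjusted p = 0.35) and Il10 (adjusted p = 0.85) did not pass the test over the time course, and Retnla, Cd163 and Chil4 were not analysed here.

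Among the 23 genes of interleukin 4 and 13 signalling, 9 were higher and 2 lower at 12 h to 2 d, beside 17.7% and 18.5% of all probe sets. At 5 to 10 d against 12 h to 2 d 1 was higher and 12 lower, beside 20.3% and 15.1%. The cytokines themselves did not pass the test over the time course: Il4 had an adjusted p of 0.13, and Il13 of 1, with 6 of 54 arrays above the floor. Il13ra1, the partner of Il4ra in the receptor for both cytokines, was higher by 3.64 at 12 h to 2 d (SE 0.37, adjusted p = 2.2e-09) and fell by 1.82 later (adjusted p = 1.5e-08). Stat6 was higher by 1.40 (SE 0.17, adjusted p = 5.1e-08), from 823.0 ± 161.6 on the controls to 2794 ± 350 at 2 d (SD, n = 2 each), and fell by 0.79 later. Jak3 was higher by 1.63 (adjusted p = 2.9e-06). Jak1 was at -0.26 (adjusted p = 0.086). Socs3, a feedback inhibitor of cytokine receptors, was higher by 5.95 (SE 0.42, adjusted p = 1.3e-12), the phosphatase gene Ptpn6 by 4.501 and the lipid phosphatase gene Inpp5d by 3.98. Without the 5 arrays the counts were 0 lower at 12 h to 2 d and 2 higher and 5 lower later. The 2 lower at 12 h to 2 d became 1 without replicate 2 of the controls and 4 without 12 h or without replicate 2 of 1 d. The 1 higher later became 2 without replicate 1 of 1 d and 0 with the floor doubled.

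The list of classical activation, the profile associated with interferon and bacterial products, was higher in 20 of 31 genes at 12 h to 2 d and lower in 0 by limma, with 1 lower under quantile normalization, median scaling or a floor of 0.5 times that used, and also without replicate 1 of the controls, either 40 d array or the 9 arrays with a low Gapdh ratio. In the same window 17.7% of all probe sets were higher and 18.5% lower. There 8 of 25 genes of alternative activation were higher, and the difference between the lists was not tested. Ccl2, the monocyte chemokine, was higher by 7.86 (SE 0.27, adjusted p = 2.7e-19), and reached 16295 ± 3018 (SD, n = 2) at 2 d from below the floor. Il1b was higher by 6.08 (SE 0.61, adjusted p = 1.9e-09) and Tnf by 2.73 (SE 0.82, adjusted p = 0.0086). Il1b was highest at 9 d, at 10383 and 2871, with 70.1 and 53.5 at 8.5 d and 78.2 and 45.7 at 9.5 d, and Tnf was highest at 9 d as well (1163 ± 457, SD, n = 2). At 5 to 10 d against 12 h to 2 d 15 of the 31 were lower and 3 higher, beside 15.1% and 20.3% of all probe sets. Il1b fell by 4.49 (adjusted p = 3.2e-12) and Ccl2 fell by 3.89 (adjusted p = 4e-19). Nos2, which competes with arginase for arginine, did not pass over the time course (adjusted p = 0.16). It was at 121.3 and 177.4 on the controls, 390.8 and 133.9 at 1 d and 348.0 and 125.7 at 2 d, so that 1 array of each time lay above both controls and 1 between them.

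Of 17 genes of arginine and polyamine metabolism, the pathways around Arg1, 15 changed over the time course, where 48.7% of all probe sets did. Over all probe sets, 17.7% were higher and 18.5% lower at 12 h to 2 d. At 12 h to 2 d 6 were higher and 4 lower, and 2 were lower without replicate 2 of the controls, without the 5 arrays or without the groups whose codes share a number, among them 1 d. Arg2, the mitochondrial arginase, was higher by 3.64 (SE 0.50, adjusted p = 6.3e-07), at 411.3 and 1791 at 12 h, 1266 and 728.1 at 1 d and 1305 and 316.7 at 2 d from 61.7 and 61.4 on the controls. At 3 d it was at 44.4 and 91.9, and at 9 d at 1374 and 224.4. Arg2 thus stood high at 12 h to 2 d and at 9 d, as Arg1 did, while at 4 d it was at 96.5 and 126.7. Odc1, the ornithine decarboxylase that starts polyamine synthesis, was higher by 0.66 (adjusted p = 0.0035) and fell by 1.62 later (SE 0.10, adjusted p = 3e-14), to -1.04 against the controls at 5 to 7.5 d (adjusted p = 7.8e-06). Spermidine synthase Srm was higher by 2.12 and the spermidine acetyltransferase Sat1 by 2.65 at 12 h to 2 d. At 5 to 10 d against 12 h to 2 d 6 were higher and 4 lower, beside 20.3% and 15.1% of all probe sets. The creatine synthesis genes rose, Gamt by 2.59 (SE 0.11, adjusted p = 8.4e-18) from -1.29 against the controls at 12 h to 2 d, and Gatm, which uses arginine, by 1.83 (SE 0.13, adjusted p = 8.1e-13), with Gatm highest at 3.5 d (5644 ± 390, SD, n = 2). The arginine transporter Slc7a2 was lower by 0.69 at 12 h to 2 d (adjusted p = 0.028).

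Among 19 scavenger and lectin receptors, the class of Mrc1 and Msr1, 10 were higher and 1 lower at 12 h to 2 d. The shares of all probe sets there were 17.7% and 18.5%. At 5 to 10 d against 12 h to 2 d 6 were higher and 6 lower, beside 20.3% and 15.1%. Mrc2, the collagen receptor closest in structure to Mrc1, was at 0.38 at 12 h to 2 d (adjusted p = 0.37) and rose by 2.64 later (SE 0.17, adjusted p = 6.1e-14), from 138.9 ± 2.9 on the controls to 1674 ± 237 at 4.5 d (SD, n = 2 each). The fibroblast markers moved in the same comparison: 7 of 10 were higher and 1 lower, with a median log2 change of 1.76, and their sum was 44219 to 76407 at 12 h to 2 d and 97806 to 198815 at 8 to 10 d. Their part in the later rises of Mrc2, of the other receptors and of Adam12 was not tested. Clec4d, a C-type lectin of myeloid cells, was higher by 5.56 (adjusted p = 2.8e-11), highest at 1 d, and fell by 3.08 later. Cd68 was higher by 3.12 (adjusted p = 9.3e-13), and its later change was 0.06 (adjusted p = 0.76). Lgals3 was higher by 4.03 (adjusted p = 1.3e-13). Without the 5 arrays 3 were higher at 12 h to 2 d and 2 lower later, without 12 h 2 were higher later, and without replicate 2 of the controls 0 were lower at 12 h to 2 d.

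For the metalloproteases related to Adam8 and their partners, 7 of 20 were higher and 4 lower at 12 h to 2 d. The shares of all probe sets were 17.7% and 18.5% there, and 20.3% higher and 15.1% lower in the later comparison below. Selplg, the P-selectin ligand on leukocytes, was higher by 3.67 (SE 0.28, adjusted p = 6.2e-12), with 15284 ± 5068 (SD, n = 2) at 1 d, and fell by 1.86 later. The inhibitor Timp1 was higher by 3.64 (adjusted p = 1.4e-14), highest at 1 d. Adam19 was higher by 2.56 (adjusted p = 2.6e-08) but highest at 4.5 d, and Adam12 rose by 1.41 at 5 to 10 d against 12 h to 2 d (adjusted p = 2.3e-06), highest at 7 d. Adam17, the tumour necrosis factor convertase, was higher by 1.46 (SE 0.50, adjusted p = 0.021) and fell by 1.37 later. At 5 to 10 d against 12 h to 2 d 5 were higher and 4 lower, with 3 higher without replicate 1 of 12 h or without the groups whose codes share a number (1, 5 and 5.5 d here). Without the 5 arrays 4 were higher and 1 lower at 12 h to 2 d and 2 lower later. Of the 3 other chitinase-like genes tested, Chil1, a secreted lectin related to Chil3, changed over the time course, with 2 passing without either 16 d array or without the 9 arrays with a low Gapdh ratio. Chil1 was higher by 2.46 at 12 h to 2 d (SE 0.23, adjusted p = 3.6e-10), at 748.1 ± 158.4 (SD, n = 2) at 1 d from 13.8 ± 7.5 on the controls, and fell by 2.18 later. It was above the floor on 14 of 54 arrays.

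**Figure D4:**
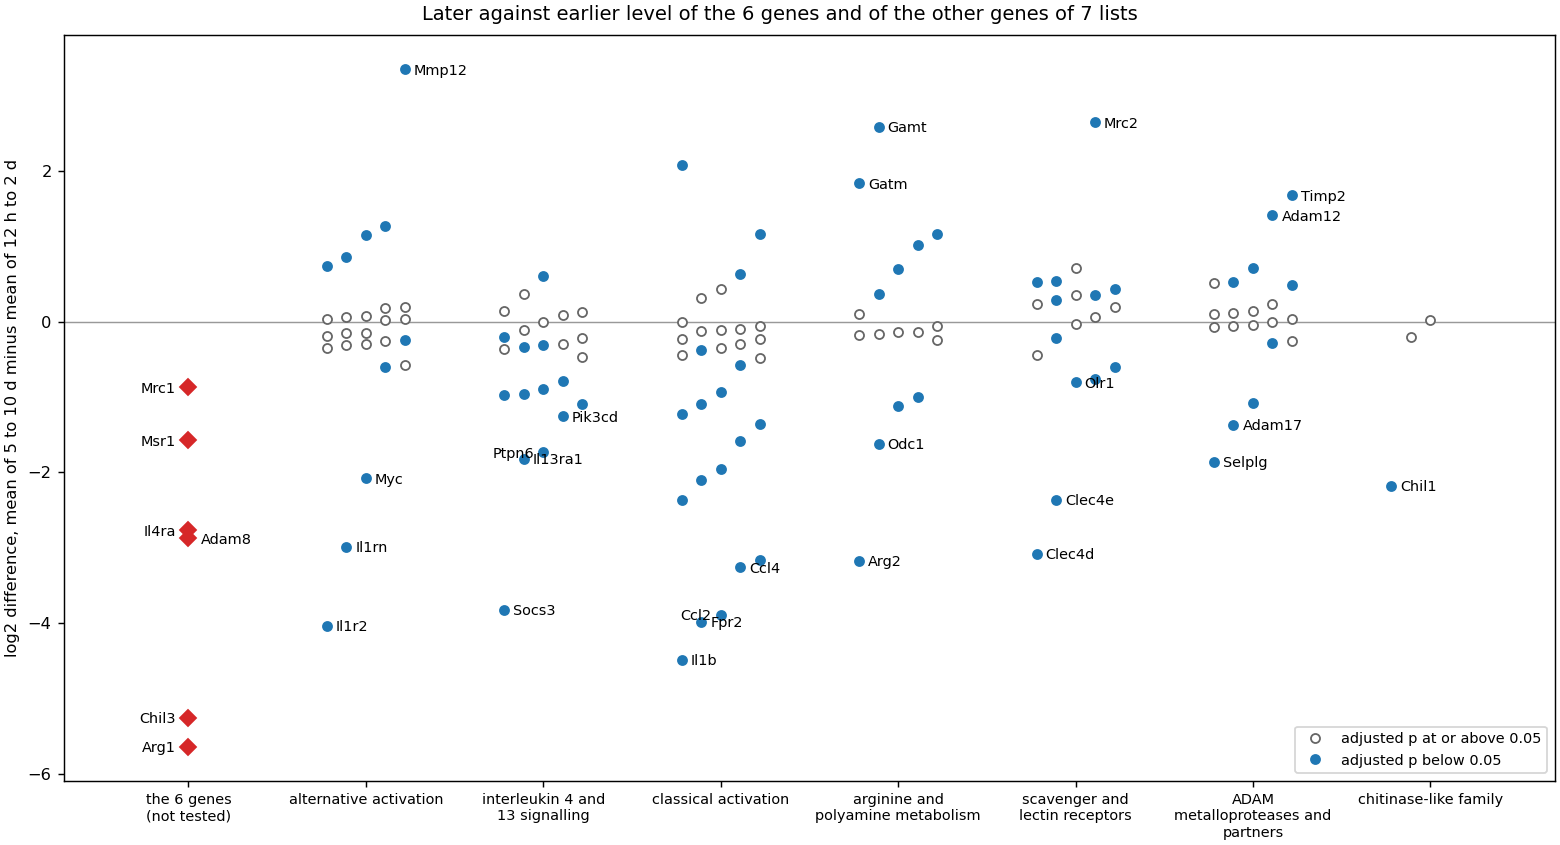
Log2 difference of 5 to 10 d minus 12 h to 2 d for the 6 genes (red diamonds, not tested) and for the other tested genes of the 7 lists, spread sideways for legibility, filled where the adjusted p is below 0.05. Arg1 and Chil3 lie at -5.64 and -5.26 and Mrc1 at -0.87, while Mmp12, Mrc2 and Gamt rose.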

How the data were processed

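The deposited values were used as they stand, as intensity on a linear scale. The unit and software are not stated in the sources used here, and the unit was read from the deposited values. The 2% trimmed mean was 799.8 to 799.9 on all 54 Av2 arrays and 598.2 to 601.1 on the 12 A arrays, so the authors' intensity values appear scaled to a common mean. On A, 16.0% of the deposited intensity values were below 0. Values were raised to a floor (the median over arrays of the 20th percentile on Av2, 64.7, and of 2 times the quadratic mean of each array's values below 0 on A, 646.8) and put on the log2 scale. Probe sets with at least 2 arrays above the floor were tested (11997 on Av2), without 66 control probe sets. Symbols came from the platform annotation, with 10833 of 12488 Av2 probe sets having 1 symbol. A gene was represented by its brightest probe set. With limma 3.58.1 (R 4.3.3), 1 mean per group was fitted on Av2, Benjamini-Hochberg adjusted p-values under 0.05 were called, and the script was tested on simulated data. Folds over controls that both lie below the floor are lower bounds.

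The 6 genes and all lists were chosen with earlier results of these data known. Named genes were the 6, the 5 genes most correlated with each, up to 4 of a list per comparison with the largest passed change, and a fixed set always given where measured. The tests planned on the A arrays were replaced by values, because those arrays may repeat the RNA of the Av2 arrays. Over the 18 groups with code numbers 1 and 2, deviations of same-numbered arrays correlated at -0.17 to 0.16 (median 0.00), so the numbers were not taken to pair the arrays.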

Additional observations from a re-analysis of the deposited data

How the results depend on the processing

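Leaving out the groups whose 2 codes share a number, all of the list genes higher at 11 to 16 d numbered 11 in place of 43, and those lower 4 in place of 7. That setting takes out 11, 12, 13 and 14 d, so these are counts of 16 d alone and of another time, where the macrophage sum was 21.9% of its highest mean. For this setting and the others below, the share of all probe sets called was not computed. Whether the lists changed relative to the whole array was thus not tested. Without the 5 arrays of 12 h to 2 d low in the b-actin 3' probe set, chosen after seeing the data, the list genes higher at 12 h to 2 d numbered 37 in place of 60, those lower 4 in place of 12, and those lower at 5 to 10 d against 12 h to 2 d 28 in place of 46, with replicate 1 of 12 h alone left in the window, so that time and ratio change together. Without the 9 later arrays low in the Gapdh 3' probe set, also chosen after seeing the data, the list genes higher at 20 to 40 d numbered 6 in place of 15, and the alternative activation genes lower at 5 to 10 d against 12 h to 2 d 3 in place of 5; this takes out 30 d, and the cause was not tested. Apart from leaving out single arrays, 316 of 323 values for the counts over all lists and for the later against earlier comparison of the alternative and classical lists stayed within 1.5 times, also without 9 d or without 4 d, which were chosen after seeing the data.

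With each of the 54 Av2 arrays left out in turn, the list genes lower at 3 to 4.5 d numbered 11 to 20 (lowest without replicate 2 of the controls), those lower at 8 to 10 d 6 to 12, those higher at 20 to 40 d 8 to 15, those lower at 20 to 40 d 2 to 5, and the alternative activation genes lower at 5 to 10 d against 12 h to 2 d 3 to 7. The highest mean of Il4ra moved between 1 d and 2 d and that of Adam8 between 12 h and 1 d. For the pairing, with the number in the sample code as a replicate block, 90 list genes changed over the time course in place of 91, and the block changed no count over all lists by over 1.5 times. On A the change of genes at or near the floor at 10 d depended on the floor and is not given. The alternatives of filter, variance trend and blocks on A were not run, since A was not tested. With 2 arrays a group, the number of arrays limits the precision.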
